A study of Homo sapiens with 4 samples.

Results

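The nuclear-encoded subunit genes of respiratory complex I were followed in KYSE-150, a cell line from a squamous carcinoma of the esophagus. The genes were taken by symbol from a fixed list of 36 NDUF genes, and all 36 are among the 17064 rows of the table. The groups are knockdown-labelled polyribosome RNA and knockdown-labelled input RNA, from cells with a stable short hairpin RNA against NSUN6, and control polyribosome RNA and control input RNA, from cells with normal NSUN6 expression. NSUN6 methylates cytosines in RNA. All cells were treated with cycloheximide, which holds ribosomes on their mRNAs, and the polyribosome fraction was pelleted through sucrose. There is 1 library per group and the labels give no number of clones, so differences below rest on single libraries and carry no p-value. Values are in FPKM, a read count scaled for the length of the gene and the size of the library.

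Complex I is the entry point of electrons from NADH into the mitochondrial respiratory chain. Its matrix arm binds NADH and passes electrons through flavin and iron-sulfur clusters to ubiquinone, and its membrane arm pumps protons. Core subunits carry the catalysis, and accessory subunits are needed for assembly and stability. The membrane core is encoded by mitochondrial DNA, while the subunits described here are nuclear-encoded, are made on cytosolic ribosomes and are imported.

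Some facts of the whole table bear on every comparison. The targeted gene NSUN6 was at 0.38 FPKM in knockdown-labelled polyribosome RNA against 10.13 FPKM on control polyribosomes. In input it was at 3.83 FPKM in knockdown-labelled cells against 8.85 FPKM in control cells. The last line of the deposited table gives another set of column names, in which the knockdown-labelled columns carry the name K30 with a hairpin against Mettl1 and stand in the other fraction order. Column names in the header match the sample labels and were followed, and the second pair is called knockdown-labelled for that reason. Of 8 squamous epithelium markers 7 passed the filter on low values, a mean of 5 FPKM, and the summed level of the 8 was 587 and 512 FPKM in the knockdown-labelled polyribosome and input libraries against 2304 and 1822 FPKM in control polyribosome and input. KRT5, a keratin of basal squamous cells, was at 0.45 FPKM in knockdown-labelled input against 906 FPKM in control input. The list did not move one way. SOX2, a transcription factor of squamous epithelium, was at 39.54 FPKM in knockdown-labelled input against 0.31 FPKM in control input, and KRT6A was at 34.25 FPKM against 29.51 FPKM in the same libraries. Markers of immune cells, endothelium and fibroblasts summed to between 5.01 and 5.69 FPKM over 12 genes in each library. What part a difference between the cells themselves has in the results below was not tested.

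Complex I messages were abundant in every library. Across the 36 genes, Pearson's r of log2 levels was 0.93 between knockdown-labelled polyribosome and input RNA and 0.99 between control polyribosome and input RNA, a description over genes that share these libraries. Their summed FPKM was 5660 in knockdown-labelled polyribosome RNA, 4533 in knockdown-labelled input, 5716 in control polyribosome RNA and 4680 in control input, which is 0.901%, 0.843%, 1.01% and 0.808% of all FPKM in those libraries. The median subunit was at 143, 125, 177 and 128 FPKM in the same order. In control input the lowest subunit was NDUFA5 at 6.36 FPKM and the highest NDUFA13 at 290 FPKM. NDUFA13, also known as GRIM-19, is a membrane-anchored subunit where the arms meet. NDUFA5, a matrix arm subunit, was also the lowest in the other libraries, at 1.27 FPKM in knockdown-labelled polyribosome RNA, 6.26 FPKM in knockdown-labelled input and 6.58 FPKM in control polyribosome RNA. The spread among subunits, as the SD of log2(FPKM + 1) over the 36 genes, was 1.84 in knockdown-labelled polyribosome RNA and 1.31 in knockdown-labelled input, against 1.33 in control polyribosome RNA and 1.32 in control input. The same library also had the widest spread over all genes that passed the filter, at 2.17 against 1.74, 1.82 and 1.76 in the other libraries in this order.

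**Figure D1:**
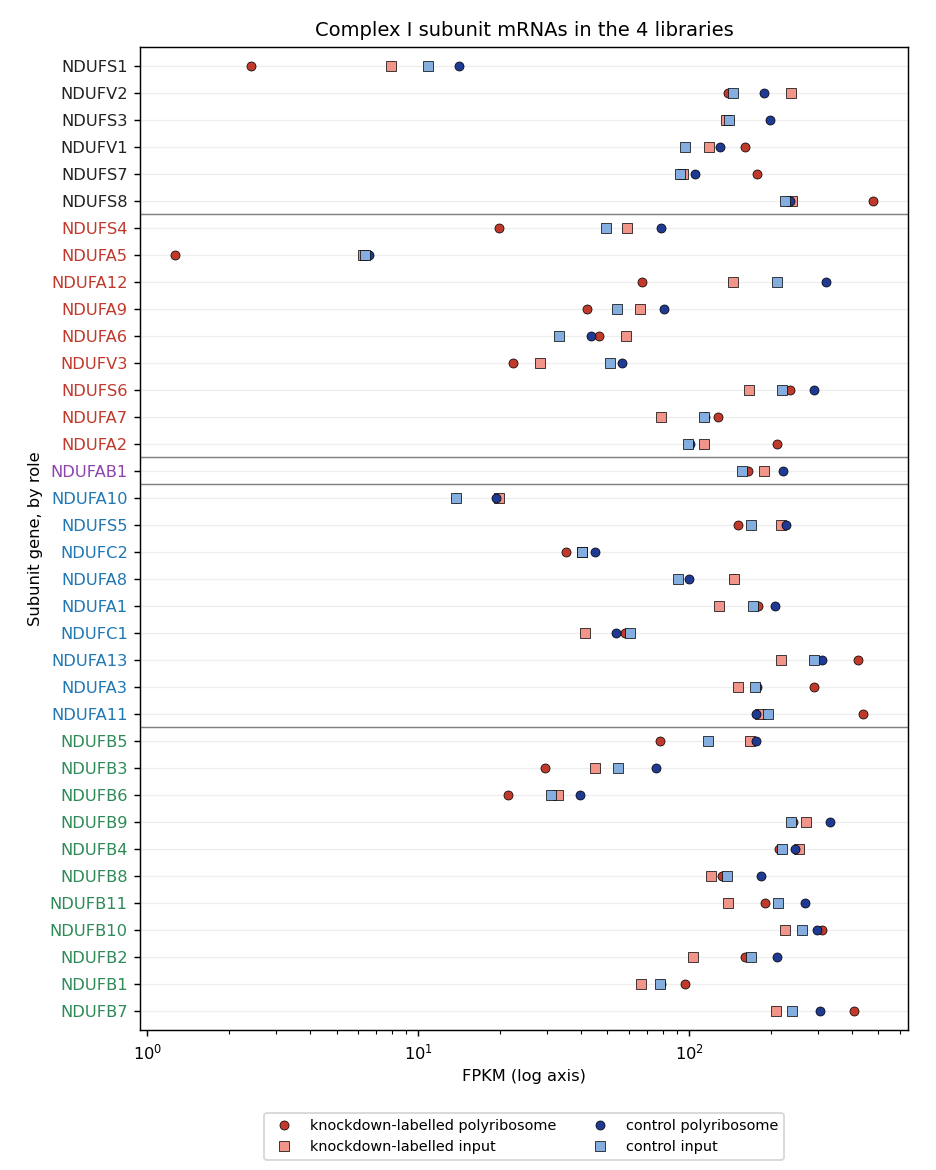
FPKM of each complex I subunit gene (log axis) in the 4 libraries, 1 point per library, with genes grouped by role and ordered within a role by their difference in translation efficiency. The knockdown-labelled polyribosome points span the widest range, from 1.27 FPKM for NDUFA5 to 478 FPKM for NDUFS8.

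The first comparison set polyribosome RNA against input RNA within control cells, and asked which messages are enriched on ribosomes. Translation efficiency here is polyribosome over input FPKM, with 1 added to each, on a log2 scale. In control cells 34 of the 36 subunit messages had a value above 0, against 54.3% of the 7379 genes whose mean over the libraries reached 5 FPKM, and the subunits' median was 0.33 against 0.03 for all these genes. No subunit was 2-fold enriched or depleted, where 0% and 0.759% of all genes were. The range was narrow, from -0.17 for NDUFC1 to 0.67 for NDUFS4. NDUFC1 is a small membrane subunit, and NDUFA11 at -0.15 was the other one below 0. NDUFS4, which holds the NADH-binding module in place and is mutated in some patients with Leigh syndrome, was at 79.1 FPKM on control polyribosomes and 49.4 FPKM in control input. NDUFA12 at 0.60, NDUFB5 at 0.58 and NDUFA9 at 0.57 came next. NDUFA12 and NDUFA9 are matrix arm subunits, and NDUFB5 lies in the distal membrane arm.

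In knockdown-labelled cells the same ratio was spread more widely than in control cells. Its quartiles were -0.54 and 0.56 over the subunits, against -1.24 and 0.57 over all genes. Here 18 subunit messages were above 0 and 18 below, with a median of 0.02 against -0.02 for all genes. The values ran from -1.68 for NDUFA5 to 1.25 for NDUFA11. Of the 36, 1 was at least 2-fold higher on polyribosomes than in input (8.62% of all genes) and 5 were at least 2-fold lower (28.8% of all genes). The 5 were NDUFA5, NDUFS4 at -1.52, NDUFS1 at -1.39, NDUFA12 at -1.11 and NDUFB5 at -1.09. In control cells NDUFA5 was at 0.04, and the other 4 lay between 0.36 and 0.67.

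The second comparison set knockdown-labelled input RNA against control input RNA. Complex I messages differed little there. Past 2-fold were 0 of 36 subunits on the higher side, where 13.2% of all genes were, and 0 on the lower side, where 14.4% of all genes were. The median difference was -0.03 on the log2(FPKM + 1) scale. NDUFA6, a matrix arm subunit of the LYR family, was at 58.7 FPKM in knockdown-labelled input against 33.1 FPKM in control input, the highest difference at 0.81. NDUFV2, a core iron-sulfur subunit, was at 239 FPKM in knockdown-labelled input against 146 FPKM in control input, a difference of 0.71. NDUFA8, which carries paired cysteine motifs and sits in the intermembrane space, differed by 0.68, with 147 FPKM in knockdown-labelled input against 91.3 FPKM in control input. At the other end NDUFV3, an accessory subunit of the NADH-binding module, was at 28.3 FPKM in knockdown-labelled input against 50.9 FPKM in control input, a difference of -0.83. NDUFB2, a small distal subunit, was at 103 FPKM in knockdown-labelled input against 169 FPKM in control input, a difference of -0.70. The other 31 subunits lay between -0.62 and 0.51. In such bulk libraries fewer cells with a message and less of it per cell cannot be told apart.

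The third comparison set knockdown-labelled against control polyribosome RNA. Of 36 genes, 3 were at least 2-fold higher in knockdown-labelled polyribosome RNA, where 16.7% of all genes were, and 7 were at least 2-fold lower, where 32.9% of all genes were. The 3 were NDUFA11, NDUFA2 and NDUFS8. The 7 were NDUFA12, NDUFS1, NDUFS4, NDUFA5, NDUFB3, NDUFV3 and NDUFB5. The subunits' median was -0.37 and that of all genes -0.28, so that relative to all genes it was -0.09. NDUFV3 was at 22.3 FPKM on knockdown-labelled polyribosomes against 56.6 FPKM on control polyribosomes, a difference of -1.30. It was lower in input too, and its efficiency differed by -0.48. With the knockdown-labelled fractions exchanged, polyribosome RNA held 0 subunits at least 2-fold higher and 2 lower, where 12.7% and 14% of all genes were. Input RNA then held 3 higher and 5 lower, where 15.9% and 31.8% of all genes were. Which fraction held the larger differences thus rests on the column order.

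**Figure D2:**
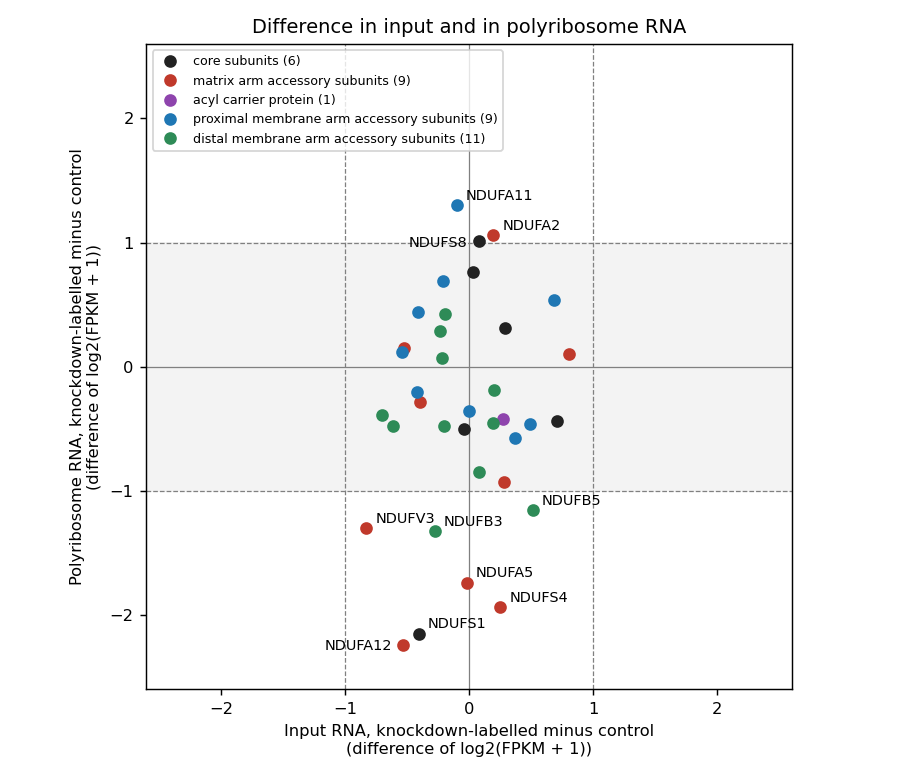
Difference in input RNA (horizontal) and in polyribosome RNA (vertical) between knockdown-labelled and control cells for the 36 subunit genes, both as differences of log2(FPKM + 1), coloured by role. Dashed lines mark 2-fold. All points lie within 2-fold in input, from -0.83 to 0.81, while polyribosome differences run from -2.24 for NDUFA12 to 1.30 for NDUFA11.

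The fourth comparison took the difference in translation efficiency, knockdown-labelled minus control. Of the 36 subunits 8 were at least 2-fold lower, where 30.1% of all genes were, and 1 was at least 2-fold higher, where 12% of all genes were. The median difference of the subunits was -0.32 and that of all genes -0.12, or -0.20 for the subunits relative to all genes. A total of 20 subunits were below 0 and 16 above. The values ran from -2.19 to 1.40. Their quartiles were -0.95 and 0.55, against -1.29 and 0.56 for all genes. Messages of the subunits were thus spread no more widely than those of genes at large in this measure.

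Core subunits lay at both ends. NDUFS1, the largest of them and a carrier of iron-sulfur clusters, was at 2.41 FPKM on polyribosomes and 7.96 FPKM in input of knockdown-labelled cells, against 14.2 and 10.9 FPKM in control cells, a difference in efficiency of -1.75. NDUFV2 was at 139 FPKM on polyribosomes and 239 FPKM in input of knockdown-labelled cells, against 189 and 146 FPKM in control cells, a difference of -1.14. In both genes the polyribosome level was below input in knockdown-labelled cells and above it in control cells. NDUFS8, which passes electrons through iron-sulfur clusters towards ubiquinone, was at 478 FPKM on polyribosomes and 240 FPKM in input of knockdown-labelled cells, against 237 and 227 FPKM in control cells, a difference of 0.93. NDUFS7, which carries the last cluster before ubiquinone, was at 179 and 94.8 FPKM in knockdown-labelled cells against 105 and 92.6 FPKM in control cells, a difference of 0.73. NDUFS3, at the quinone module, differed by -0.46, and NDUFV1, which binds flavin and NADH, by 0.02. Of the 6 core subunits 2 were at least 2-fold lower, a share near the 30.1% of all genes. None was at least 2-fold higher, where 12% of all genes were.

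Accessory subunits of the matrix arm had the lowest median of the groups, -0.71 over 9 genes. Of these 4 were at least 2-fold lower and 0 at least 2-fold higher, where 30.1% and 12% of all genes were. NDUFS4 had the lowest value of all 36 subunits, -2.19. It was at 19.9 FPKM on polyribosomes and 59.0 FPKM in input of knockdown-labelled cells, against 79.1 and 49.4 FPKM in control cells. NDUFA5 was at 1.27 and 6.26 FPKM in polyribosome and input RNA of knockdown-labelled cells, against 6.58 and 6.36 FPKM in control cells, a difference of -1.72. NDUFA5 has 12 named pseudogenes that could share its reads. The other values of this gene were nearly equal, and the knockdown-labelled polyribosome value stood apart. At these low levels its difference depended on the added constant, at -0.87 with 5 FPKM added and -2.26 with 0.1 FPKM added. NDUFA12, a relative of the assembly factor NDUFAF2, was at 66.9 and 146 FPKM in knockdown-labelled cells against 321 and 211 FPKM in control cells, a difference of -1.71. NDUFA9, which holds a bound NADPH, was at 42.0 and 66.1 FPKM in knockdown-labelled cells against 80.9 and 54.1 FPKM in control cells, a difference of -1.21. In this group the higher values belonged to NDUFA2, a thioredoxin-fold subunit, at 0.86 and to NDUFA7 at 0.68. NDUFA7 was at 127 and 78.7 FPKM in polyribosome and input RNA of knockdown-labelled cells, against 115 and 114 FPKM in control cells. NDUFA2 was at 212 and 114 FPKM in polyribosome and input RNA of knockdown-labelled cells, against 101.05 and 99.35 FPKM in control cells. Both were more abundant on polyribosomes than in input in knockdown-labelled cells and nearly level in control cells. NDUFA6 was at -0.71, NDUFV3 at -0.48 and the zinc-binding NDUFS6 at 0.11. NDUFAB1, the mitochondrial acyl carrier protein, which sits in both arms and also serves lipoic acid synthesis, was at -0.70, with 165 and 189 FPKM in knockdown-labelled cells against 222 and 156 FPKM in control cells.

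Accessory subunits of the proximal membrane arm had a median of 0.21 over 9 genes. Of these 1 was at least 2-fold higher and 0 lower, where 12% and 30.1% of all genes were. NDUFA11, a membrane subunit at contacts of complex I with complex III, was the highest of all 36 at 1.40. It was at 439 FPKM on polyribosomes and 183 FPKM in input of knockdown-labelled cells, against 177 and 196 FPKM in control cells. Its exons overlap those of another coding gene, so reads of the pair may not be separable. NDUFA3, a small membrane subunit, was at 289 and 151 FPKM in knockdown-labelled cells against 178 and 176 FPKM in control cells, a difference of 0.90. NDUFA13 differed by 0.85, NDUFC1 by 0.65 and NDUFA1, an X-linked small subunit, by 0.21. NDUFA10, which resembles a nucleoside kinase, was at 13.8 and 19.8 FPKM in knockdown-labelled cells against 19.4 and 13.8 FPKM in control, a difference of -0.95. NDUFS5, with paired cysteine motifs like NDUFA8, also differed by -0.95, with 152 and 219 FPKM in knockdown-labelled cells against 227 and 169 FPKM in control. NDUFC2 differed by -0.36 and NDUFA8 by -0.14.

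The NDUFB subunits of the distal membrane arm had a median of -0.28 over 11 genes. Of these 2 were at least 2-fold lower and 0 higher, where 30.1% and 12% of all genes were. NDUFB5 was at 78.4 FPKM on polyribosomes and 168 FPKM in input of knockdown-labelled cells, against 176 and 117 FPKM in control cells, a difference of -1.67. NDUFB3, a single-pass membrane subunit, was at 29.52 and 45.01 FPKM in knockdown-labelled cells against 75.6 and 54.8 FPKM in control cells, a difference of -1.05. NDUFB6 was just inside 2-fold at -0.93. At the other end were NDUFB7, an intermembrane space subunit with paired cysteine motifs, at 0.62 and NDUFB1 at 0.52. NDUFB7 was at 407 and 209 FPKM in polyribosome and input RNA of knockdown-labelled cells, against 304 and 240 FPKM in control cells. NDUFB1, one of the smallest subunits, was at 96.4 and 66.4 FPKM in knockdown-labelled cells against 78.7 and 78.2 FPKM in control. The other 6 lay between -0.64 for NDUFB9 and 0.31 for NDUFB2. Every role group thus held values of both signs except the single acyl carrier protein.

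**Figure D3:**
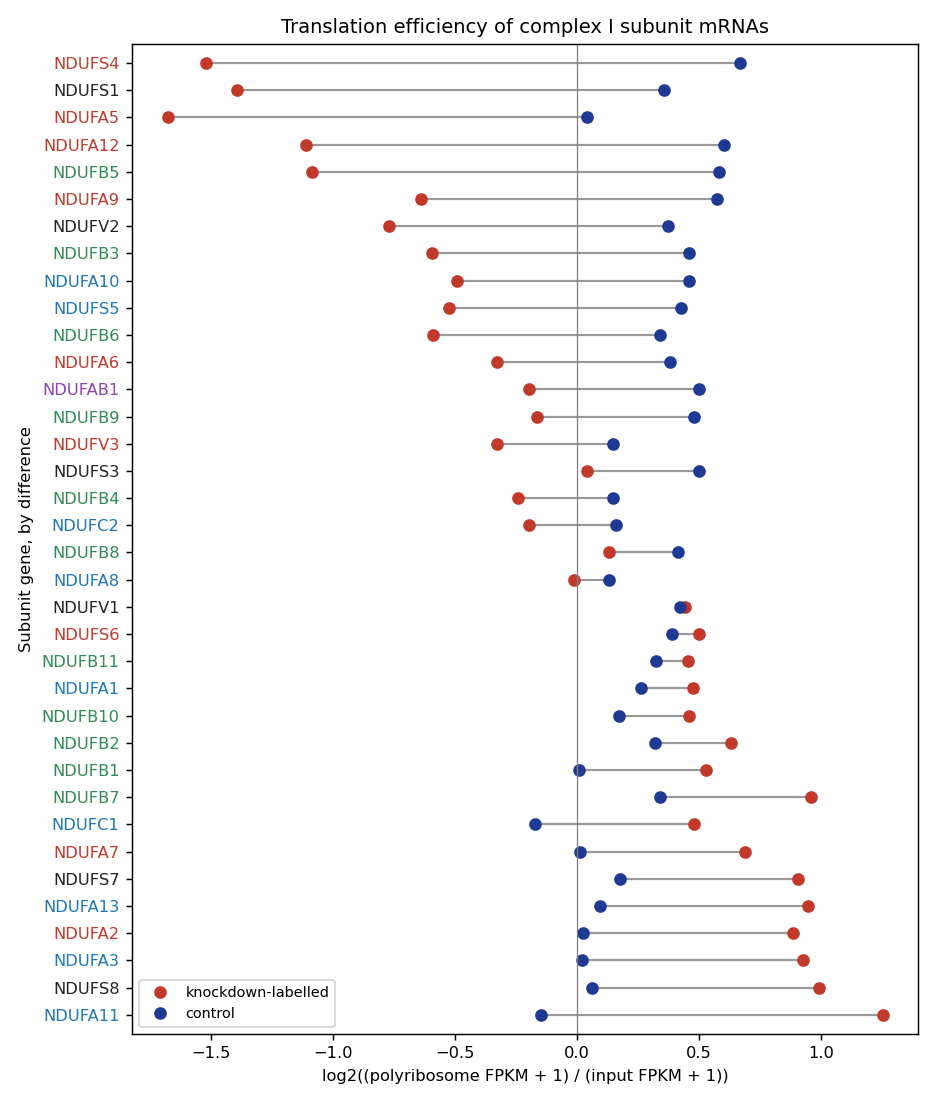
Translation efficiency, as log2((polyribosome FPKM + 1) / (input FPKM + 1)), of each subunit message in knockdown-labelled and control cells, 1 value each, ordered by the difference, with names coloured by role as in the scatter of input and polyribosome differences. Control values run from -0.17 to 0.67 and knockdown-labelled values from -1.68 to 1.25. When both knockdown-labelled columns trade places, the largest differences change sign, to 0.85 for NDUFS4 and -1.11 for NDUFA11.

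Which subunits passed 2-fold changed most with the column order and with the removal of a trend with base composition. With the knockdown-labelled fractions exchanged, 0 of the 9 subunits past 2-fold in efficiency kept their call. NDUFA5 at 1.63 and NDUFS1 at 1.04 were then at least 2-fold higher, where 27.8% of all genes were, and 5 subunits were at least 2-fold lower, where 6.29% of all genes were. With a trend on GC content and transcript length removed, 2 of the 9 kept theirs, NDUFS4 at -1.67 and NDUFA12 at -1.59, and NDUFA11 was at -0.30. Another 7 subunits were then at least 2-fold lower, so that 9 were in all, where 17.5% of all genes were. The 7 were NDUFB9 at -1.35, NDUFB7 at -1.35, NDUFS5 at -1.27, NDUFB8 at -1.13, NDUFS3 at -1.06, NDUFB10 at -1.02 and NDUFV1 at -1.02. Values with the trend removed were not centred on 0, with a median of -0.40 for all genes and -0.49 for the subunits.

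Efficiency of the subunit messages in knockdown-labelled cells varied with the G+C content of their coding sequences. Coding G+C of the 36 genes ran from 42.5% in NDUFA5 to 66.2% in NDUFS7, with a median of 53.2%. Of the 18 subunits below that median 2 had a difference in efficiency above 0, and of the 18 at or above it 14 did. The lower-G+C subunits had a median difference in efficiency of -0.95 and the higher-G+C ones of 0.47, with medians of the input difference of 0.23 and -0.21. Across the 36 genes, which share the same libraries and are not independent, Pearson's r between coding G+C and efficiency was 0.90 in knockdown-labelled cells (Spearman's rho 0.92) and -0.44 in control cells (rho -0.44). For the difference in efficiency r was 0.86, for the difference in polyribosome RNA 0.77 and for the difference in input RNA -0.29. With the knockdown-labelled fractions exchanged, r was -0.90 for efficiency in knockdown-labelled cells and -0.89 for the difference in efficiency. It was then -0.06 for polyribosome RNA and 0.76 for input RNA. The sign of the relation, and the fraction that carries it, thus rest on the column order. Log2 transcript length gave an r of -0.39 with the difference in efficiency.

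The relation also held over all genes. Over the 7341 genes with a transcript in the reference, r between coding G+C and efficiency was 0.75 in knockdown-labelled cells and 0.02 in control cells. With the knockdown-labelled fractions exchanged, it was -0.75 in knockdown-labelled cells, and -0.74 for the difference in efficiency. Among genes of 45% to 50% coding G+C the median difference in efficiency was -1.14 for 9 subunits and -1.29 for all 1220 genes. Between 50% and 55% it was -0.56 for 8 subunits and -0.46 for all 1288 genes, and between 55% and 60% it was 0.13 for 7 subunits and 0.16 for all 1552 genes. At 60% to 65% it was 0.88 for 6 subunits and 0.55 for all 1409 genes. Efficiency itself was above the median of all genes in each of these bins, in knockdown-labelled cells at -0.64 against -1.21, -0.18 against -0.27, 0.46 against 0.29 and 0.94 against 0.59, for subunits and all genes. With the knockdown-labelled fractions exchanged, these efficiency values change sign, and the subunits lie below all genes in each bin. The part of base composition in the differences was not tested beyond the removal of its trend.

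**Figure D4:**
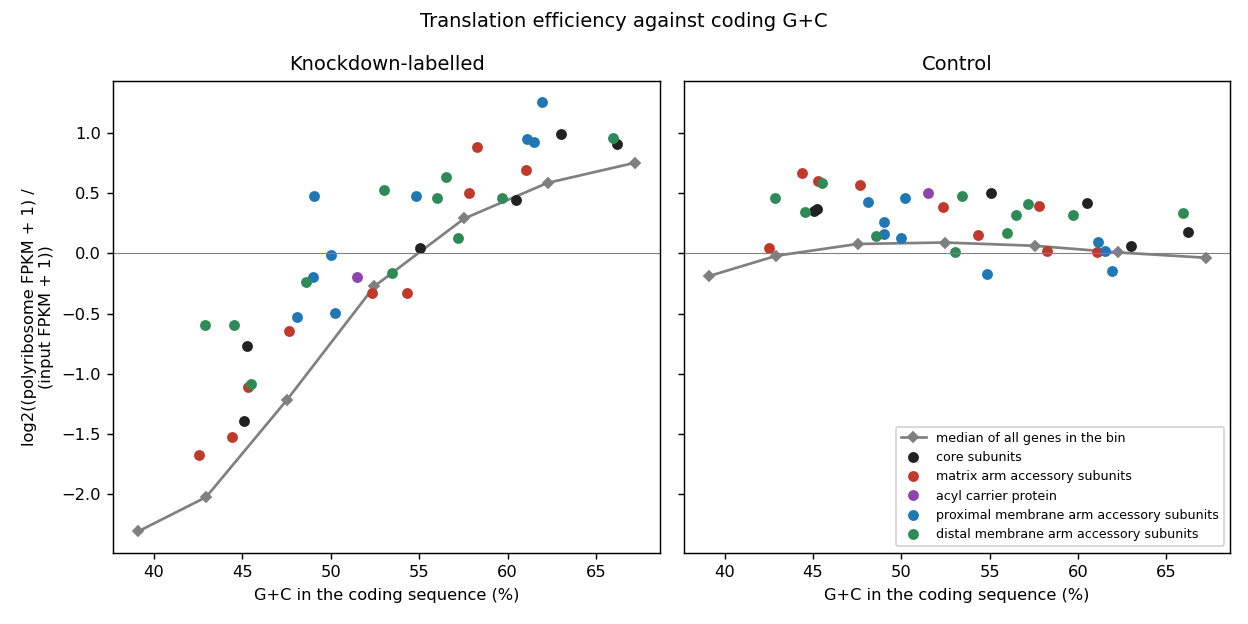
Translation efficiency of the 36 subunit messages against the G+C content of their coding sequence (%), in knockdown-labelled cells (left) and control cells (right), coloured by role, with grey diamonds at the medians of all genes in bins of coding G+C. In knockdown-labelled cells values are higher at higher G+C, from -1.68 at 42.5% (NDUFA5) to 0.91 at 66.2% (NDUFS7), while in control cells they stay between -0.17 and 0.67. When both knockdown-labelled columns trade places, the values on the left change sign.

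The start of the coding sequence shows this contrast at the third codon position, where most synonymous choice lies. The first 60 codons of the 3 subunits with the lowest and the 3 with the highest difference in efficiency are given, from GENCODE 29 transcripts, with a G or C at the third position of a codon in capitals. NDUFS4 (chromosome 5, plus strand), NDUFS1 (chromosome 2, minus strand) and NDUFA5 (chromosome 7, minus strand) are the low ones. NDUFA11 (chromosome 19, minus strand), NDUFS8 (chromosome 11, plus strand) and NDUFA3 (chromosome 19, plus strand) are the high ones.
NDUFS4: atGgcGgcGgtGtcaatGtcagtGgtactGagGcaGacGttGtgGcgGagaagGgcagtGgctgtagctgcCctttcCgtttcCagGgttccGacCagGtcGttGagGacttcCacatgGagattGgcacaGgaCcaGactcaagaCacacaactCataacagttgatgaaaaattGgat
NDUFS1: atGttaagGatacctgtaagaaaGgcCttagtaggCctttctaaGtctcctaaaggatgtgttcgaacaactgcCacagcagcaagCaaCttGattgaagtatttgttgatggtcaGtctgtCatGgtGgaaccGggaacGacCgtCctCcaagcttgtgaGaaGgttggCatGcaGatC
NDUFA5: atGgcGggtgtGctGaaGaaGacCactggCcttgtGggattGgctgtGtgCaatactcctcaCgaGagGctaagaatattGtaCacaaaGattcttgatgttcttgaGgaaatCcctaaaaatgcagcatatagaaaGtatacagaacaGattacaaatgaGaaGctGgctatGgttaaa
NDUFA11: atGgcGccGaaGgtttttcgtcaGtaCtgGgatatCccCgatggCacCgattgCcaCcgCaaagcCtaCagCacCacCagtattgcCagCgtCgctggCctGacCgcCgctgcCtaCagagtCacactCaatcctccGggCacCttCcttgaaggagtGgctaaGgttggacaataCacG
NDUFS8: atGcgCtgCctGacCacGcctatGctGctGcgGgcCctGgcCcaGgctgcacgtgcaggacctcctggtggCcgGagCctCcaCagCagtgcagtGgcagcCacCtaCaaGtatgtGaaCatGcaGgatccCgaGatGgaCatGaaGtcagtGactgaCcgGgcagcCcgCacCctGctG
NDUFA3: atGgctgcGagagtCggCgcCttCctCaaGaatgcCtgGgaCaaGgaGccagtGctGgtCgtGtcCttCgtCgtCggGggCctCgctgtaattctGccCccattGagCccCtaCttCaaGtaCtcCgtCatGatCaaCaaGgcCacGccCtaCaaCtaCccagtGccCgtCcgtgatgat
In these stretches 34, 25 and 26 of 60 codons ended in G or C in NDUFS4, NDUFS1 and NDUFA5, against 38, 43 and 48 of 60 in NDUFA11, NDUFS8 and NDUFA3. Over their whole coding sequences the shares were 44.6%, 38.2% and 37.9% in the low 3, against 72.3%, 81.9% and 83.3% in the high 3. The ranges do not overlap in either measure, but in the stretches NDUFS4 with 34 came close to NDUFA11 with 38. Over all genes kept the median share in whole coding sequences was 64.2%, with quartiles of 49.1% and 75.6%. These 6 genes were chosen for their difference in efficiency, so the contrast is a description.

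Many messages for mitochondrial proteins have short leaders and a start codon inside the TISU element, a context known to allow initiation soon after the cap. The letters AAGATGGCGG, which form the centre of that element, were the most frequent 10 from 3 bases before the ATG over 18321 coding transcripts. They were searched on the sense strand at the annotated start codon only and overlap the full element. A match was found in 5 of the 35 subunit transcripts with at least 12 bases before the start codon (14.3%), against 2.40% of 7161 such transcripts of all genes kept. Among 39 subunits of complexes II to V, 3 matched (7.69%). Of the complex I subunits, NDUFS4, NDUFA9, NDUFA6, NDUFB8 and NDUFS7 held the letters. The 5 are shown from 12 bases before the start codon, with the searched letters in capitals.
NDUFS4: gcctgcagcAAGATGGCGGcggtgtca
NDUFA9: ttgtgggaaAAGATGGCGGctgccgca
NDUFA6: tgctttggcAAGATGGCGGggagcggc
NDUFB8: aagaaggtgAAGATGGCGGtggccagg
NDUFS7: gccgaggccAAGATGGCGGtgctgtca
Their differences in efficiency, in this order, were -2.19, -1.21, -0.71, -0.28 and 0.73. Their coding G+C ran in the same order, at 44.4%, 47.7%, 52.3%, 57.2% and 66.2%. Not all 5 have short leaders in the transcripts used. In the same order these were of 28, 20, 211, 13 and 296 bases, against a median of 104.5 over the 36 subunits. The full TISU consensus at the start codon was matched by NDUFS4 alone among the 35 (2.86%), and by 1.49% of all genes kept. It was matched by 3 of the 39 subunits of complexes II to V (7.69%). In control cells the 5 had efficiencies of 0.67, 0.57, 0.38, 0.41 and 0.18.

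The motif CTCCA, in which NSUN6 is known to methylate mRNA, was counted on the sense strand of whole transcripts. It occurred in 26 of 36 subunit transcripts, against 94.0% of all genes kept. Subunit transcripts were short, with a median length of 908 bases against 2605 bases in all genes, and the median density of the motif was 1.06 per kilobase against 1.57 per kilobase in all genes. Density and the difference in efficiency had an r of 0.23 across the 36 subunits and 0.28 across all genes. Of the 8 subunits at least 2-fold lower in efficiency, NDUFS4 and NDUFA5 have 0 copies in the transcripts used, NDUFA12, NDUFB5 and NDUFB3 have 1 each, NDUFV2 has 2, NDUFA9 has 10 and NDUFS1 has 12. NDUFA11, the one at least 2-fold higher, has 1.

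Genes that work with complex I were set beside its subunits. Of 16 assembly factors 15 passed the same filter. Of these 5 were at least 2-fold lower in efficiency, where 30.1% of all genes were, and 2 at least 2-fold higher, where 12% of all genes were, with a median of -0.51. Both shares are near those of all genes. TMEM126B, which helps to build the membrane arm, was lowest at -2.12, and NDUFAF4 was at -1.86. COA1 at 1.55 and ECSIT at 1.26 were highest. In input 4 of the 15 assembly factors were at least 2-fold lower, where 14.4% of all genes were, and 1 at least 2-fold higher, where 13.2% of all genes were. NDUFAF3, which joins the quinone module early, was at 17.4 FPKM in knockdown-labelled input against 94.6 FPKM in control input, and NDUFAF6, another assembly factor, was at 16.2 FPKM in knockdown-labelled input against 6.36 FPKM in control input. Among 7 regulators of mitochondrial biogenesis 4 passed the filter. TFAM, which packages and transcribes mitochondrial DNA, was at 0.69 and 10.2 FPKM in polyribosome and input RNA of knockdown-labelled cells, against 6.8 and 8 FPKM in control cells, a difference in efficiency of -2.53. NRF1 differed by -0.41, PPRC1 by 0.00 and ESRRA by 1.47.

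Subunits of complexes II to V, the remainder of the respiratory chain and ATP synthase, were counted in the same way. All 39 passed the filter. In efficiency 9 were at least 2-fold lower and 2 at least 2-fold higher, both smaller shares than the 30.1% and 12% of all genes, with a median of -0.04. SDHD, a membrane anchor of complex II, was lowest at -2.41 and UQCRC2 of complex III followed at -2.17. UQCR11 of complex III at 1.57 and ATP5I of ATP synthase at 1.03 were highest. In input 2 of the 39 passed 2-fold on the higher side and 0 on the lower side, where 13.2% and 14.4% of all genes did. In control cells 33 of 39 were more abundant on polyribosomes than in input. Pearson's r between coding G+C and efficiency in knockdown-labelled cells was 0.64 over these 39 genes, in the column order of the header. Whether the 2 sets differ was not tested, since there is 1 library per group.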

How the data were processed

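Input and polyribosome RNA of KYSE-150 cells were sequenced in 4 libraries, 1 per group, grouped by sample titles and matched to columns by the sample descriptions. The authors deposited FPKM per gene symbol. The submitters' processing notes name TopHat, hg19 and GRCh37. The sources used here do not name the counter, its strand setting, the annotation or any filter. A ratio of polyribosome to input per gene is deposited as well. It equals the authors' FPKM ratio after adding 5 above and below (largest gap 5e-10) and was not used further. Read depth is unknown, since the lowest value above 0 was the rounding limit of 0.01 FPKM in each library, so no interval or floor is given.

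Differences were computed on the log2(FPKM + 1) scale, which understates changes of low genes. A mean FPKM of 5 or more in the 4 libraries was required, which left 7379 of 17064 rows (26 rows have a number for a name), and all 36 members passed. No test was possible, and genes at least 2-fold apart were counted. Members, lists and role groups were chosen with earlier results of these data known. Members past 2-fold and the 2 highest and 2 lowest of each role group and list were named, with NSUN6 as the targeted gene; others were named after their values were seen.

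Transcript features came from 1 protein-coding GENCODE 29 transcript per gene (the APPRIS principal one where given, then the longest of the best supported), found by current symbol, or by an older one with a single meaning, for 7341 genes (99.5%). That release is on GRCh38, so no coordinates are given. Pseudogenes named after a member exist for 17 members, 9 members share exon positions with another coding gene on the same strand and 13 with one on the opposite strand, so their FPKM is uncertain. Python 3.11.15, pandas 2.3.3 and scipy 1.17.1 were used. The arithmetic of the differences was checked by recovering known fold changes put without noise on the control values. That check says nothing of how reliable any difference is.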

Additional observations from a re-analysis of the deposited data

Results flagged for a closer look

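In 9 subunits past 2-fold in efficiency, polyribosome RNA was on one side of input in knockdown-labelled cells and on the other side in control cells. The difference was not tested, since there is 1 library per group. Control efficiencies of the subunits lay between -0.17 and 0.67. From the control values of these 9, a difference past 2-fold already sets the side, so the change of side adds nothing to their calls. Polyribosome RNA was below input in knockdown-labelled cells and above it in control cells for NDUFS4 (log2 difference in efficiency -2.19), NDUFS1 (-1.75), NDUFA5 (-1.72), NDUFA12 (-1.71), NDUFB5 (-1.67), NDUFA9 (-1.21), NDUFV2 (-1.14) and NDUFB3 (-1.05). It was above input in knockdown-labelled cells and below it in control cells for NDUFA11 (1.40).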

How the results depend on the processing

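No paired analysis was possible because each group has 1 library. Leaving out a library was not possible for the same reason. The knockdown fractions exchanged gave, for efficiency differences, 2 subunits at least 2-fold higher and 5 lower (27.8% and 6.29% of all genes), with NDUFS4 at 0.85, NDUFA12 at 0.51, NDUFB5 at 0.50, NDUFA9 at 0.068, NDUFV2 at 0.40, NDUFS1 at 1.04, NDUFB3 at 0.13, NDUFA5 at 1.63 and NDUFA11 at -1.11. Input then held 3 subunits at least 2-fold higher and 5 lower (15.9% and 31.8% of all genes). Polyribosome RNA held 0 higher and 2 lower (12.7% and 14% of all genes). Efficiency within knockdown-labelled cells held 5 higher and 1 lower (28.8% and 8.62% of all genes). NDUFS4 was at 1.52, NDUFA12 at 1.11, NDUFB5 at 1.09, NDUFS1 at 1.39, NDUFA5 at 1.68 and NDUFA11 at -1.25. By construction these are the same values with the other sign. With GC content and transcript length removed, 0 subunits were at least 2-fold higher in the efficiency difference (9 lower, where 17.5% of all genes were), 0 in polyribosome RNA and 0 in knockdown-labelled efficiency, where 2 were lower. All genes then had a median efficiency difference of -0.40 and a median polyribosome difference of -0.37. The efficiency difference was then 0.23 for NDUFA5 and -0.30 for NDUFA11, the polyribosome difference 0.0029 for NDUFA5 and -0.22 for NDUFS8, and knockdown-labelled efficiency 0.083 for NDUFB5, 0.37 for NDUFA5 and -0.44 for NDUFA11. Of the 10 subunits past 2-fold in polyribosome RNA, 2 kept their call with this trend removed, NDUFA12 and NDUFS4. In all 5 were then at least 2-fold lower, where 26% of all genes were, with NDUFB11, NDUFB7 and NDUFB8 not among the earlier ones. Why single genes moved was not tested. With 5 FPKM added, 3 subunits were at least 2-fold lower in knockdown-labelled efficiency (21.6% of all genes). In the efficiency difference 6 subunits were then at least 2-fold lower (21.8% of all genes). NDUFA5 at -0.87 and NDUFB3 at -0.97 lost their call there. Centred on the median of all genes, 3 were at least 2-fold higher in the efficiency difference and 2 in knockdown-labelled efficiency (15.2% and 9.22% of all genes). NDUFB3 was then inside 2-fold in the efficiency difference, at -0.93. All other counts of subunits were within 1.5 times under these settings, with 0.1 FPKM added, with a mean of at least 1 FPKM and with no filter. Efficiency in control cells held 0 subunits past 2-fold under each setting run. Depth is unknown, so counting error could not be set beside any value.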
